A study of Mus musculus with 6 samples.

Results

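Small leucine-rich proteoglycans and lubricin are secreted proteins of the extracellular matrix. They were followed here through 10 genes, Dcn, Bgn, Aspn, Lum, Fmod, Prelp, Omd, Ogn, Podn and Prg4, in mouse adipose derived mesenchymal stem cells (AD-MSCs). A gene entered by name, and every probe set that the array's annotation gives to that gene alone was kept. This gave 21 of 45037 probe sets, and 10 of 18193 genes. CD73+ AD-MSCs and CD73- AD-MSCs came from fat of the groin of adult C57BL/6 mice, and had been separated by flow cytometry on CD73, a surface enzyme that makes adenosine from AMP. Both subgroups grew in the same low glucose medium with fetal bovine serum, and RNA was taken at the fifth passage, so that the cells had divided in culture after the sort. Each subgroup was hybridised to 3 Affymetrix mouse 430 2.0 arrays. Whether those 3 stem from separate cultures is not in the labels, so a p-value measures only their spread, which may be technical.

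The small leucine-rich proteoglycans share a curved core of leucine-rich repeats that lies along collagen fibrils and sets how thick and how far apart the fibrils become. Members of class I, such as decorin and biglycan, usually carry chondroitin or dermatan sulfate chains, and those of class II, such as lumican and fibromodulin, keratan sulfate chains. Several also bind growth factors of the TGF-beta family or cell surface receptors. Lubricin, the product of Prg4, is a large mucin-like glycoprotein that coats cartilage and tendon and lets them slide. Fibroblasts and stromal cells of connective tissue, fat included, are a main source of these proteins.

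Values are log2 signals, so that a difference of 1 is a 2-fold change. Signals of different probe sets cannot be set against each other as amounts of RNA, but the scale has a lower end, where a probe set has little room to fall. The lower quartile of the 6 arrays lay between 3.83 and 3.92 and the median between 5.28 and 5.37. Arrays of the same subgroup correlated with r of 0.997 to 0.998 across probe sets, which are not independent replicates. The brightest probe set of Nt5e, which encodes CD73, had 7.84, 7.60 and 7.74 in CD73+ and 7.29, 6.39 and 6.84 in CD73- AD-MSCs (limma, adjusted p = 0.0218). The poly-A controls DapX, LysX, PheX and ThrX, bacterial transcripts normally added to the RNA, averaged 7.76 in CD73+ and 8.69 in CD73- AD-MSCs, a difference of -0.93. Other control probe sets also had subgroups that did not overlap, with differences of -0.56 for 18S ribosomal RNA, -0.23 for the hybridisation controls and 0.26 for Gapdh; their part in the results was not tested. With the poly-A controls set equal across arrays, the median difference of all probe sets becomes 0.93, so that all directions hold for the values as deposited.

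Most of the 10 genes were higher in CD73+ than in CD73- AD-MSCs. Dcn (decorin), Fmod (fibromodulin) and Prg4 (lubricin) rose the most, by 2.36-fold, 2.05-fold and 1.91-fold, and Aspn, Omd, Ogn and Prelp rose by between 1.23-fold and 1.69-fold. Each gene was read from its brightest probe set over all arrays, and there Bgn, Podn and Lum did not pass. At the limma threshold, an adjusted p below 0.05, 7 of the 10 genes were thus higher and 0 lower, where 10.1% of all genes were higher and 12.6% were lower. Over all probe sets of the 10 genes, 16 of 21 were higher and 0 lower, against 9.79% and 9.11% of all probe sets tested. None was lower at an unadjusted p under 0.05 by limma or by the methods' t-test, which left 11 of the 21 probe sets and 3 of the 10 genes (Dcn, Fmod and Prg4) higher after Benjamini-Hochberg adjustment. Aspn, Ogn, Prelp and Omd did not pass that test (adjusted p = 0.0520, 0.0559, 0.101 and 0.171). The median difference over the 10 genes was 0.45, against -0.018 over all genes. In 17 of the 21 probe sets each CD73+ array lay above each CD73- array, which held for 17.7% of all probe sets. In cultures of this kind a smaller share of cells that make a transcript and less of it per cell cannot be told apart.
Leaving out CD73+ replicate 1 or CD73+ replicate 2 left 10 probe sets and 4 genes higher, and leaving out CD73- replicate 1 left 4 genes higher. In limma, Dcn, Aspn, Fmod and Prg4 passed whichever array was left out, with adjusted p from limma of at most 0.0265.

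**Figure D1:**
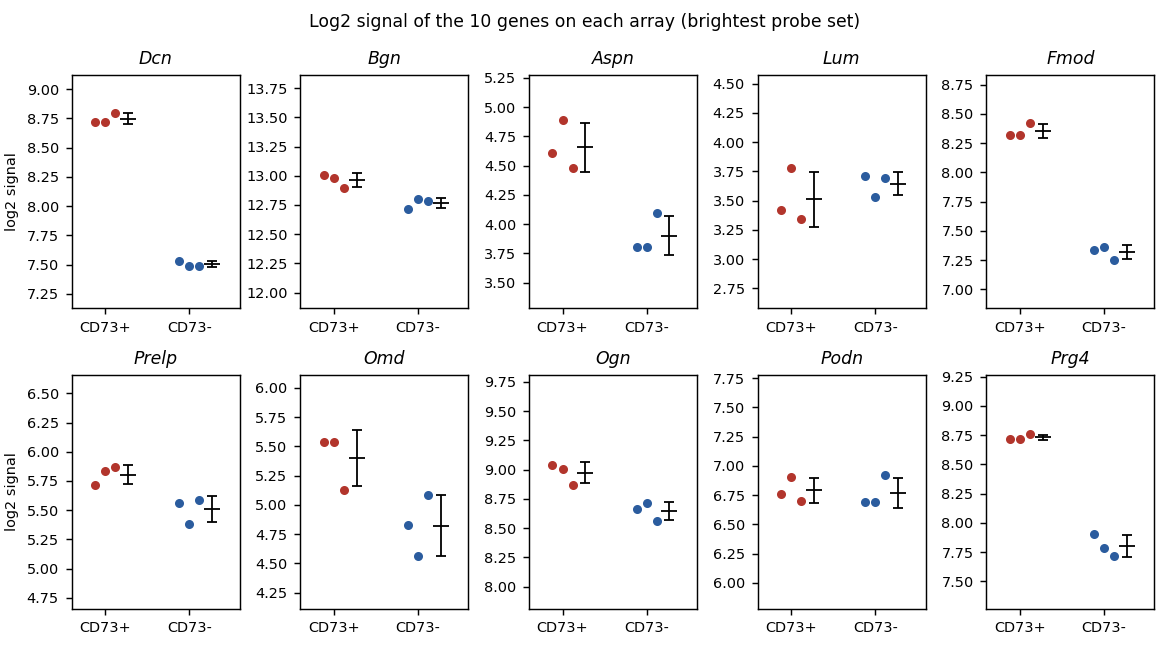
Log2 signal (vertical axis) of each of the 10 genes on its brightest probe set, with 1 point per array, CD73+ AD-MSCs in red on the left and CD73- AD-MSCs in blue on the right of each panel, and the mean and SD of the 3 arrays in black. All panels span 2 log2 units, and the groups stand clear of each other for Dcn, Fmod and Prg4 and overlap for Lum and Podn.

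Class I holds Dcn, Bgn and Aspn. Dcn encodes decorin, which binds collagen I fibrils, holds TGF-beta in the matrix and restrains growth factor receptors. Its signal was 8.72, 8.72 and 8.80 in the CD73+ arrays, against 7.53, 7.49 and 7.49 in the CD73- arrays. The gap was many times the SD within either subgroup (difference 1.24, standard error 0.055, adjusted p = 8.59e-05 from limma), the largest difference among the 21 probe sets. A second probe set, 1441506_at, lay near the lower quartile of the arrays, at 3.87, 3.73 and 3.74 in CD73+ and 3.73, 3.68 and 3.68 in CD73- AD-MSCs, and its difference of 0.084 did not pass (adjusted p = 0.439 from limma).
Bgn encodes biglycan, the closest relative of decorin, whose soluble form is a ligand of the innate receptors Tlr2 and Tlr4. On the brightest probe set it read 13.01, 12.98 and 12.90 in CD73+ and 12.72, 12.80 and 12.78 in CD73- AD-MSCs. The groups did not overlap, yet the difference of 0.20 had a 95% interval of 0.056 to 0.34, not adjusted for the number of tests, and missed the threshold (adjusted p = 0.0614 from limma). Its other probe sets rose by 0.25 and 0.22 (adjusted p = 0.0195 and 0.0241 from limma), and so did the mean of all 3, by 0.22 (adjusted p = 0.0101 from limma). On every Bgn probe set the interval lay well below that of the bright Dcn probe set, which ran from 1.11 to 1.37. In mean signal, each Bgn probe set lay above at least 99.4% of all probe sets, and that Dcn probe set above 80.3%. The part of signal level in the smaller Bgn differences was not tested.
Aspn encodes asporin, which has a run of aspartate residues, usually carries no sugar chain and binds TGF-beta. Its signal was 4.60, 4.89 and 4.48 in the CD73+ arrays, against 3.80, 3.80 and 4.09 in the CD73- arrays, where it came close to the lower quartile. It rose by 0.76, with a standard error of 0.12 (adjusted p = 0.00547 from limma). The second Aspn probe set, 1448421_s_at, lay lower still, and its 0.30 missed the threshold (adjusted p = 0.143 from limma). Affymetrix gives the ending s to probe sets whose probes match transcripts of more than 1 gene, and x to those with some probes that match other sequences.

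Class II holds Fmod, Lum, Prelp and Omd. Fmod encodes fibromodulin, which guides the assembly and cross-linking of collagen fibrils in tendon and other dense tissue. All 6 of its probe sets rose, by between 0.63 and 1.04 (adjusted p between 0.000156 and 0.0288 from limma). On the brightest, 1456084_x_at, the signal was 8.32, 8.32 and 8.43 in the CD73+ arrays and 7.34, 7.37 and 7.25 in the CD73- arrays. The probe set with neither ending, 1415939_at, read 7.93, 7.95 and 7.70 in CD73+ and 7.23, 6.99 and 7.15 in CD73- AD-MSCs, a rise of 0.74. No Fmod probe set had overlapping groups.
Lum encodes lumican, the keratan sulfate proteoglycan that keeps corneal collagen evenly spaced. Its only probe set read 3.42, 3.77 and 3.34 in CD73+ and 3.71, 3.53 and 3.69 in CD73- AD-MSCs, at or below the lower quartile of every array. The groups overlapped, and the difference of -0.13 had a 95% interval from -0.41 to 0.14 (adjusted p = 0.523 from limma). At such a signal the array can show little of a fall, and no detection call was among the values used here.
Prelp encodes a protein that ties collagen fibrils to the heparan sulfate proteoglycans of basement membranes. Its brightest probe set read 5.71, 5.83 and 5.87 in CD73+ and 5.56, 5.38 and 5.59 in CD73- AD-MSCs, a rise of 0.29 (adjusted p = 0.0371 from limma). The other, 1416321_s_at, had 6.01, 5.78 and 5.89 in CD73+ and 5.08, 5.11 and 5.19 in CD73- AD-MSCs and rose by 0.76 (adjusted p = 0.000682 from limma), so that the probe sets gave the same direction and sizes whose 95% intervals did not overlap, 0.11 to 0.48 and 0.59 to 0.93. The call on the brightest ended when any array other than CD73- replicate 3 was left out (adjusted p from limma 0.0532 to 0.114).
Omd encodes osteomodulin, known from bone and tooth. It read 5.54, 5.54 and 5.13 in the CD73+ arrays, against 4.82, 4.56 and 5.08 in the CD73- arrays, so that CD73+ replicate 3 and CD73- replicate 3 nearly met. The rise of 0.58 (standard error 0.16, adjusted p = 0.0415 from limma) ended without replicate 1 or 2 of either subgroup (adjusted p from limma 0.108 to 0.132).

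Ogn, Podn and Prg4 stand outside these classes. Ogn encodes osteoglycin, also called mimecan, a class III protein found in bone, vessel wall and other connective tissue. It read 9.04, 9.01 and 8.87 in the CD73+ arrays and 8.67, 8.71 and 8.56 in the CD73- arrays, a rise of 0.33 (adjusted p = 0.0182 from limma). A second probe set had 8.65, 8.65 and 8.74 in CD73+ and 8.39, 8.29 and 8.14 in CD73- AD-MSCs and rose by 0.41 (adjusted p = 0.00985 from limma). The call on the brightest was lost without CD73+ replicate 1 or 2 and without CD73- replicate 1 (adjusted p from limma 0.0509 to 0.0747).
Podn encodes podocan, a class V protein described in the kidney glomerulus and in vascular smooth muscle. Its only probe set read 6.76, 6.91 and 6.70 in CD73+ and 6.70, 6.69 and 6.92 in CD73- AD-MSCs. The groups overlapped, at a signal well above the array medians, and the 95% interval of the difference of 0.022 ran from -0.18 to 0.23 (adjusted p = 0.905 from limma). That interval lies below those of the brightest probe sets of Dcn, Fmod, Prg4 and Aspn.
Prg4 encodes lubricin, which lubricates joint and tendon surfaces and can bind the hyaluronan receptor CD44. It read 8.72, 8.71 and 8.76 in the CD73+ arrays, against 7.90, 7.78 and 7.71 in the CD73- arrays, and the lowest CD73+ value lay far above the highest CD73- value. It rose by 0.93, with a standard error of 0.066 (adjusted p = 0.000236 from limma).

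**Figure D2:**
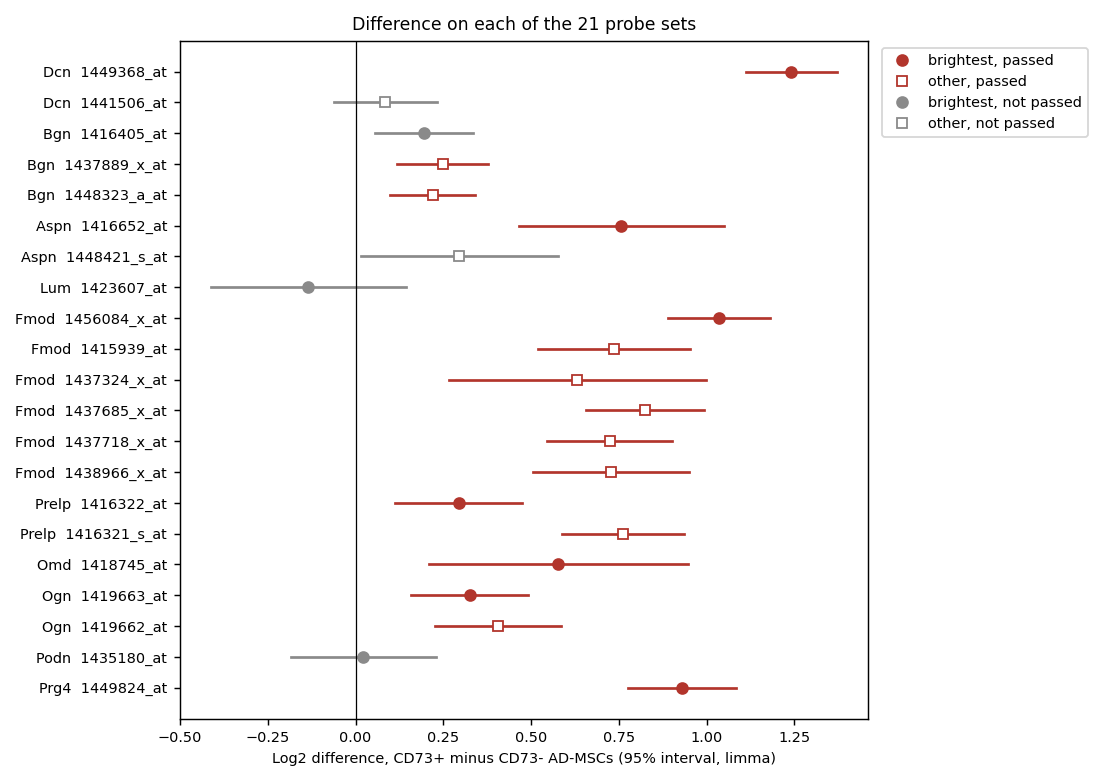
Log2 difference, CD73+ minus CD73- AD-MSCs (horizontal axis), of the 21 probe sets with 95% intervals from limma (3 arrays per subgroup), filled circles for the brightest probe set of a gene, open squares for its others, red for those higher at an adjusted p under 0.05 and grey for those that did not pass. The points run from -0.13 for Lum to 1.24 for Dcn, and the 6 Fmod probe sets all lie between 0.63 and 1.04.

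Several of these genes lie next to each other in the mouse genome, and neighbours did not always move together. In the RefSeq gene table (GRCm38.p6), Dcn and Lum open a row of 4 family genes on chromosome 10, followed by Kera (keratocan, of the cornea) and Epyc (epiphycan, of growing cartilage). Dcn alone of this row passed: Lum, Kera and Epyc had differences of -0.13, -0.022 and -0.082, all from signals at or below the lower quartile. On chromosome 13, Ecm2, Aspn, Omd and Ogn follow each other, and Aspn, Omd and Ogn all rose, while Ecm2, another leucine-rich matrix protein, differed by 0.11 (adjusted p = 0.694 from limma) from a signal near 3.2. On chromosome 1, Optc, Prelp and Fmod stand in a row. Prelp and Fmod rose, and Optc, which encodes opticin of the vitreous of the eye, differed by -0.081 (adjusted p = 0.617 from limma). Bgn, Podn and Prg4 have no family gene beside them.

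**Figure D3:**
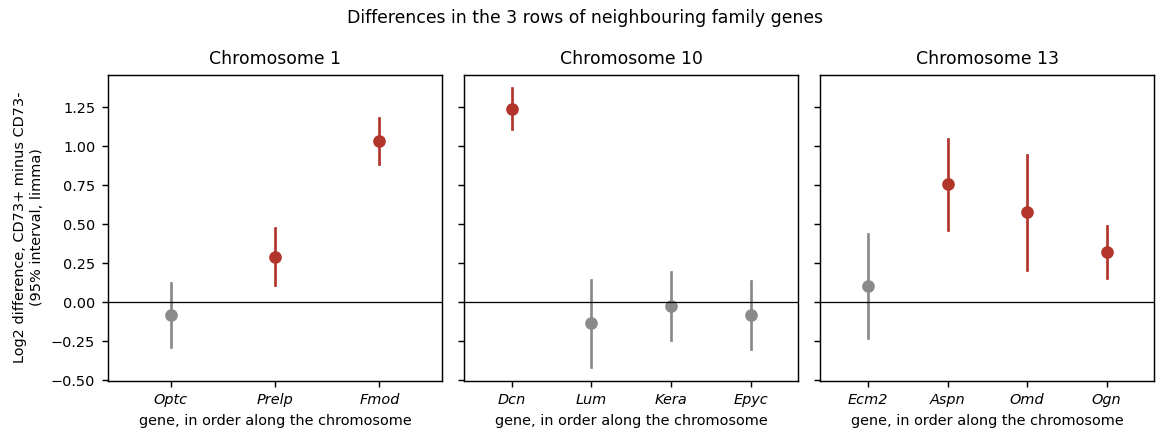
Log2 difference, CD73+ minus CD73- AD-MSCs (vertical axis), of the brightest probe set of each family gene in 3 rows of neighbours on chromosomes 1, 10 and 13, in gene order along the horizontal axis and not to distance, with the limma 95% intervals over 3 arrays each. Red marks genes that were higher past the threshold, grey the rest. On chromosome 10 Dcn stands at 1.24 while its neighbours lie between -0.13 and -0.022.

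The stretch before the transcription start is shown for the 5 neighbours on chromosomes 1 and 13 that rose, since these moved the same way. Each is the 250 bases before a RefSeq start (GRCm38.p6), 5′ to 3′ on the strand of the gene: Fmod at chr1:134037004-134037253 (plus strand), Prelp at chr1:133921402-133921651 (minus strand), Aspn at chr13:49544193-49544442, Omd at chr13:49582212-49582461 and Ogn at chr13:49607765-49608014 (all plus strand). Capitals mark matches, on either strand, to 6 short motifs: the TATA box TATAAA, the GC box GGGCGG, the SMAD element CAGAC, the TEAD element GGAATG, the AP-1 element TGANTCA and the E-box CAGCTG.
Fmod: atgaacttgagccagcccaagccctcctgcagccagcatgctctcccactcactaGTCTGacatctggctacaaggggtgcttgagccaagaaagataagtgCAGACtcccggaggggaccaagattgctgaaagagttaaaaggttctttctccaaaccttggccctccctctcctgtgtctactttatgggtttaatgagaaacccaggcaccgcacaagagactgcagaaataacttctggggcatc
Prelp: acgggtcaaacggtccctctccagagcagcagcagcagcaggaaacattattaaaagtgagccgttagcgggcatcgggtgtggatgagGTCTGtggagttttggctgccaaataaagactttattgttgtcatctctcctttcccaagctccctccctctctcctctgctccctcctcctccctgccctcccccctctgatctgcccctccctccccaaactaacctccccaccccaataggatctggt
Aspn: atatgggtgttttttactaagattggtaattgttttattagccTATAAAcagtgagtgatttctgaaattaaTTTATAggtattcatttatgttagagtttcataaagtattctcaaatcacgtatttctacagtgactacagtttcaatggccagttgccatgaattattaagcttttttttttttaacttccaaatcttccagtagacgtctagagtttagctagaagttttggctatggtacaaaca
Omd: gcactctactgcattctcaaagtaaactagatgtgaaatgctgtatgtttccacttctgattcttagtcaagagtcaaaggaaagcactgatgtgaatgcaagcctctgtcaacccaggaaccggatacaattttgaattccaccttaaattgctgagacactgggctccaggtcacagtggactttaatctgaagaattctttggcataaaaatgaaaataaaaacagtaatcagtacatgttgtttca
Ogn: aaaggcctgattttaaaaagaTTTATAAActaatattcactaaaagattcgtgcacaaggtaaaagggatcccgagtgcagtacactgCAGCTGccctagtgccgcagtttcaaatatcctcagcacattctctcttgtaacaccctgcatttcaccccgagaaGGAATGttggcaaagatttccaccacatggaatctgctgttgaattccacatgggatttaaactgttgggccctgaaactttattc
Fmod held the SMAD letters at 2 places and Prelp at 1, which 42.2% of 32851 promoters of this length hold at least once. Aspn held the TATA letters at 2 places, the nearer ending at position -173 from the start, and Ogn held them as an overlapping pair on opposite strands; 12.4% of promoters hold them. Ogn also held 1 TEAD match and 1 E-box, which 12.6% and 13.0% of promoters hold. Omd held none of the 6, and none of the 5 stretches held the GC box or the AP-1 element, which 32.7% and 6.75% of promoters hold. No motif was thus common to all of them, and a match is a description of the letters only.

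Other genes of the same biology were taken from lists compiled by hand, whose counts stand against 10.1% higher and 12.6% lower among all genes. The collagens on which these proteoglycans lie were mostly higher as well: 12 of 18 fibrillar collagens and fibril partners were higher and 0 were lower, with a median difference of 0.52, and 0 were lower at an unadjusted p under 0.05 by limma or the methods' t-test. Col6a1 and Col6a2, chains of the beaded collagen VI that decorin and biglycan bind, rose by 1.45 and 1.39. Of the enzymes that build chondroitin and dermatan sulfate chains, 8 of 26 were higher and 1 was lower (median 0.16), where 10.1% and 12.6% of all genes were. Csgalnact1, which starts and lengthens the chondroitin chain, read 7.43, 7.33 and 7.31 in the CD73+ arrays and 6.24, 6.13 and 6.21 in the CD73- arrays. It rose by 1.16 (adjusted p = 0.000122 from limma) and by 1.29 on its other probe set. Pxylp1, a phosphatase that acts on the linkage sugar, rose by 1.16, although the dimmest of its 3 probe sets did not pass. Csgalnact2, the partner of Csgalnact1, fell by 0.33 (adjusted p = 0.0348 from limma), a call that ended without replicate 1 or 2 of either subgroup (adjusted p from limma 0.0798 to 0.122).
Among 9 genes of keratan sulfate synthesis, the chain that some class II members can carry, 2 were higher and 0 were lower. Among all genes the shares were 10.1% and 12.6%, and 9 genes are too few to set these counts apart from them. None was lower at an unadjusted p under 0.05 by limma or the methods' t-test. Chst1, a sulfotransferase that acts on keratan sulfate, read 7.96, 8.14 and 8.12 in CD73+ and 6.93, 6.86 and 6.91 in CD73- AD-MSCs, and rose by 1.18 (adjusted p = 0.000131 from limma). B4galt1, a galactosyltransferase, rose by 0.43. The median of this list was 0.0012, so that the rest of it lay about 0.
Of 20 measured ligands and receptors of these proteoglycans, 7 were higher and 2 were lower (median 0.14), against 10.1% and 12.6% of all genes. Tgfb3, a TGF-beta that decorin can hold, rose by 0.65, and P2rx7, an ATP receptor through which biglycan can signal, by 0.96, although its other probe sets, at 0.19 and 0.51, did not pass. Tlr4, a receptor of soluble biglycan, fell by 0.24 (adjusted p = 0.0392 from limma) on 1 of its 4 probe sets, and this call ended without any 1 array other than CD73+ replicate 1 (adjusted p from limma 0.0579 to 0.127). Ccn2, a matricellular protein that decorin binds, fell by 0.27, a call that ended without CD73+ replicate 1 and with the replicate block (adjusted p = 0.0533 and 0.0545 from limma).
Of 19 proteases and protease enhancers that act on proteoglycans or collagen, 7 were higher and 1 was lower (median 0.18), against the same 10.1% and 12.6%. Pcolce2, an enhancer of procollagen processing, rose by 1.36, and Adamts4, which cuts aggrecan and also some leucine-rich proteoglycans, by 0.83. Tll1, a relative of Bmp1, the protease that trims probiglycan, fell by 0.29 from a low signal, and the call ended without any 1 array other than CD73- replicate 3 (adjusted p from limma 0.0733 to 0.125).
Of 7 measured relatives of the 10 genes (Ecm2, Chadl, Kera, Nyx, Optc, Epyc and Chad), 0 were higher and 0 were lower, where 10.1% and 12.6% of all genes were, and 0 passed an unadjusted p of 0.05 by limma or the methods' t-test. Their median was -0.028, and 6 of the 7 had a mean signal below the array median. Chad, which encodes chondroadherin of cartilage, had the smallest p, with 4.39, 4.39 and 4.71 in CD73+ and 4.71, 4.72 and 4.45 in CD73- AD-MSCs and a difference of -0.13 (adjusted p = 0.531 from limma). The difference from the 10 genes was not tested.

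**Figure D4:**
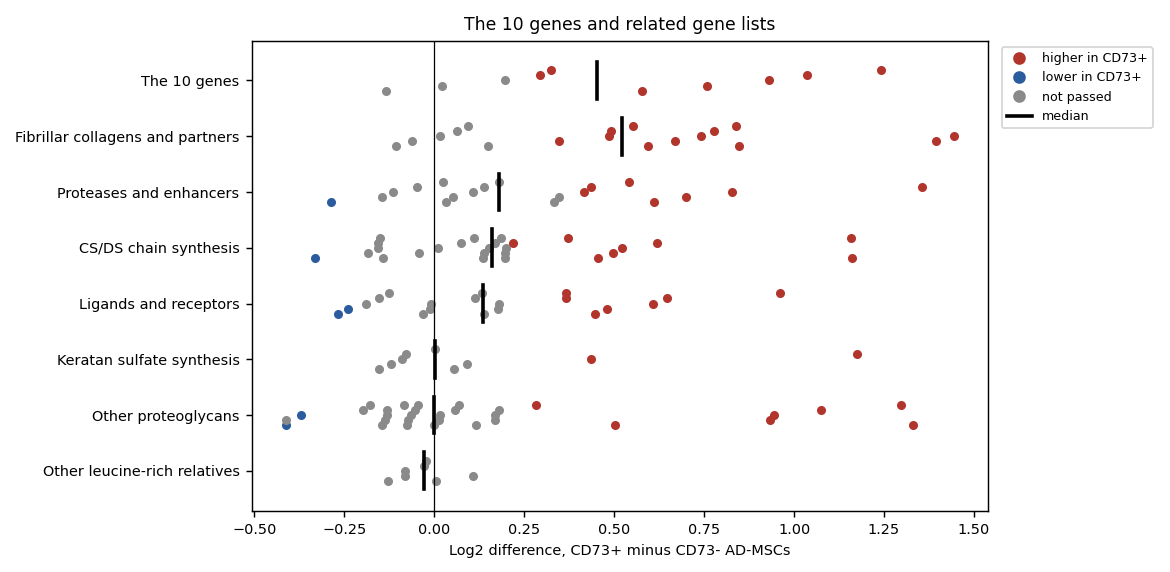
Log2 difference, CD73+ minus CD73- AD-MSCs (horizontal axis), of the 10 genes and of the measured genes of 7 related lists, each gene a point (brightest probe set), with a black bar at the median; CS/DS stands for chondroitin and dermatan sulfate. Red and blue mark genes higher and lower past the limma threshold, grey the rest. The 10 genes and the collagen list have medians of 0.45 and 0.52, and the other leucine-rich relatives lie about -0.028.

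Markers of stromal and other cells were read on the same arrays. Stromal markers were present, and 8 of 13 were higher and 0 were lower, against 10.1% and 12.6% of all genes. Those higher included Pdgfra (0.64), Thy1 (0.65) and Col1a1 (0.85), which like Col1a2 and Col3a1 also stands in the collagen list. Pi16 (0.24), Cd44 (0.18), Itgb1 (0.18), Eng (0.082) and Dpp4 (-0.084) did not pass. The summed signal, on the linear scale, was 25500.1 to 26009 in CD73+ and 17976 to 18220.3 in CD73- AD-MSCs. Its largest part came from Col1a2, at means of 13.38 in CD73+ and 12.83 in CD73- AD-MSCs. Of 10 leukocyte and macrophage markers, 3 were higher (Cd53, Cd14 and Csf1r), against 10.1% of all genes. Their list had a sum of 489.9 to 527 in CD73+ and 400.1 to 435 in CD73- AD-MSCs. Ptprc, which encodes CD45, stood near the lower end, at means of 3.06 in CD73+ and 3.19 in CD73- AD-MSCs. Of 9 pericyte and smooth muscle markers 2 were higher (Cnn1 and Tagln), against 10.1% of all genes. The sums of this list were 22982 to 23180.2 in CD73+ and 20212.5 to 20667 in CD73- AD-MSCs. Their largest part came from Acta2, which did not pass, at means of 13.67 in CD73+ and 13.63 in CD73- AD-MSCs. Myh11 had means of 3.82 and 4.01. Of 7 mesothelial and 8 skeletal muscle markers 1 each was higher, Msln and Acta1, a share near the 10.1% of all genes. The mesothelial sum was 153 to 168 in CD73+ and 139 to 149 in CD73- AD-MSCs. The muscle sum was 563 to 603 in CD73+ and 482 to 495 in CD73- AD-MSCs and followed Acta1 (0.38), while the median difference of that list was -0.019. Endothelial, Schwann cell and chondrocyte markers had 0 of 8, 0 of 4 and 0 of 8 past the threshold, although 2 chondrocyte genes and 1 Schwann cell gene were lower at an unadjusted p under 0.05 by limma. Of 6 adipocyte markers only Pparg passed, lower by 0.24, and Adipoq stood at 3.18 (mean of CD73+) and 3.17 (mean of CD73-). The part of these cells in the differences of the 10 genes was not tested.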

How the data were processed

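RNA of 3 CD73+ and 3 CD73- AD-MSC samples was measured on Affymetrix mouse 430 2.0 arrays. As deposited, the values are log2 signals of 45101 probe sets, for which the submitters' processing notes name RMA, a method that corrects background, normalizes between arrays and summarizes the probes of a set. RMA tends to compress small ratios and removes a shift shared by most transcripts; its version and the genome build were not given in the sources used here. After 64 control probe sets were set aside, 45037 entered 1 fit (lmFit, then eBayes, without block or intensity filter) in limma 3.58.1 under R 4.3.3. All p-values were adjusted together by Benjamini-Hochberg, and 0.05 was the threshold. No test for the arrays is named in the methods; the methods' t-test is the equal-variance form of the analysis of variance that they give for other data. The annotation gives 34945 probe sets 1 symbol, 932 several and 9160 none. The Entrez IDs of all 10 genes matched the RefSeq table. For each gene the probe set of highest mean was used. Precision is limited by the number of arrays; SDs within a subgroup had a median of 0.10.
The 10 genes and all lists were chosen with earlier results of these data known. Of the genes that passed in each list, the text names the 2 that rose most and the 2 that fell most, or else the gene with the smallest p, besides the family genes next to the 10; further genes named among the markers and relatives were chosen after their values were seen. Same-numbered arrays showed no clear shared deviation, which with 3 arrays per subgroup cannot exclude a pairing. The labels do not state that the numbers pair samples, so the main fit has no block. Alternatives were a replicate block, other normalizations, scaling to poly-A controls, a filter at the median, other eBayes priors, array weights, fits without 1 array, the methods' t-test and the mean of the probe sets of a gene. The fit was tested on simulated data. Promoter sequences are from RefSeq (GRCm38.p6), and matched 7 of the 10 genes. Dcn, Lum and Prg4 had no entry, so their promoters could not be examined. Plots were made in Python 3.11.15 (matplotlib 3.10.9).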

Additional observations from a re-analysis of the deposited data

How the results depend on the processing

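On the deposited scale, 16 probe sets of the 10 genes were higher, and 10 to 15 when 1 array was left out; the genes that passed numbered 7, and 4 to 7 when 1 array was left out, with 0 lower in each fit run. The methods' t-test left 3 genes (Dcn, Fmod and Prg4). The counts over all probe sets, 4408 higher and 4105 lower, ran from 2794 to 4199 and from 2525 to 3907 when 1 array was left out. With the replicate block the lower count was 2713, and the rises of Prelp and Omd no longer passed (adjusted p = 0.0792 and 0.102 from limma), nor did the calls of Ccn2, Mkx, Tll1, Tlr4, Csgalnact2 and Cspg5 (0.0545 to 0.109). The correlation of same-numbered deviations was -0.14, 0.028 and -0.14 for replicates 1, 2 and 3. The Prelp call also ended with quantile normalization, median centring and cyclic loess (adjusted p = 0.0709, 0.0663 and 0.0539 from limma). Bgn passed with the filter on dim probe sets, an intensity trend, array weights and the mean of its probe sets (adjusted p = 0.0157, 0.00053, 0.0317 and 0.0101 from limma).
Scaling to the poly-A controls gave 44707 probe sets higher and 33 lower, so that every direction is relative to the scale. Lum (0.79), Chad (0.80), Csgalnact2 (0.60), Ptprz1 (0.51), Cspg5 (0.56), Ccn2 (0.66), Tlr4 (0.69), Tll1 (0.64), Kera (0.90), Epyc (0.84) and Optc (0.85) were then higher. That scaling shifts all probe sets of an array alike. Relative to the median over all probe sets, it therefore returns the deposited differences by construction (Dcn 1.24, Fmod 1.04 and Prg4 0.93). These values are thus no test of the genes. Signs turned also in genes that did not pass: Podn was at -0.010 with median centring and ran from -0.037 to 0.098 when 1 array was left out, Kera was at 0.050 with array weights and ran from -0.11 to 0.035, and Epyc from -0.13 to 0.014. The causes of these changes were not tested. Probe sets near the lower quartile (Lum, the second ones of Dcn and Aspn) can show little of a fall.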

Other observations

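Proteoglycans of other families did not move as one group. Their list also holds the hyaluronan synthases Has1, Has2 and Has3 and the link proteins Hapln1 and Hapln3, which are not proteoglycans. Of the 31 genes measured, 7 were higher, Has2 (0.93) among them, and 2 were lower in CD73+ AD-MSCs at an adjusted p under 0.05 from limma. The median was 0.00059, and 10.1% of all genes were higher and 12.6% lower. Tgfbr3, or betaglycan, a TGF-beta co-receptor that can carry sugar chains, read 9.67, 9.61 and 9.54 in the CD73+ arrays and 8.28, 8.25 and 8.30 in the CD73- arrays. It rose by 1.33 (adjusted p = 8.59e-05 from limma), while its dim second probe set did not pass. Vcan, which encodes versican, a large chondroitin sulfate proteoglycan that binds hyaluronan, read 10.68, 10.62 and 10.70 in CD73+ and 9.47, 9.35 and 9.30 in CD73- AD-MSCs, and rose by 1.30 (adjusted p = 0.000111 from limma). Of its 8 probe sets the 3 brightest rose, and of the 5 dim ones 1 did. Ptprz1, a receptor phosphatase that carries chondroitin sulfate, fell by 0.41 on its brightest probe set, and 1 of its other probe sets did not pass. This call ended under the methods' t-test (adjusted p = 0.0511). Cspg5, known from the brain, fell by 0.37, a call that ended without replicate 2 or 3 of either subgroup (adjusted p from limma 0.100 to 0.116).
Of 11 genes listed by hand for tendon or joint lining, tissues rich in fibromodulin and lubricin, 4 were higher and 0 were lower. Among all genes 10.1% were higher and 12.6% lower. Kera, also counted among the relatives, is on this list. The median of the list was 0.13, and 0 were lower at an unadjusted p under 0.05 by limma or the methods' t-test. Of the 11 genes, 9 had a mean signal below the array median. The count higher fell to 2 with the replicate block or without replicate 1 or 2 of either subgroup. Without CD73+ replicate 3, 1 gene was lower. With the filter on dim probe sets the count was also 2, since Scx and Mkx were removed before the test. Scx, a transcription factor of the tendon lineage, read 5.03, 5.04 and 4.98 in CD73+ and 4.53, 4.41 and 4.17 in CD73- AD-MSCs, below the array medians, and rose by 0.64 (adjusted p = 0.00337 from limma), while its dimmer second probe set did not pass. Mkx, another such factor, rose by 0.44 (adjusted p = 0.0217 from limma), a call that ended without those same arrays (adjusted p from limma 0.0598 to 0.0815). Htra1 (0.31) and Egr1 (0.20) were the other genes that passed. The rest of the list did not pass and went both ways. Tnmd (0.19) and Fgf18 (0.13) had positive differences. Thbs4 (-0.29), Tppp3 (-0.14), Crtac1 (-0.13), Clic5 (-0.12) and Kera (-0.022) had negative ones.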
